A study of Mus musculus with 6 samples.

Results

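The genes described here are 45 genes that lie between Dhx15 and Igfbp7 on mouse chromosome 5, in the middle part of the chromosome. They were chosen by position, with the receptor genes Kit and Kdr left out, and all 45 matched a probe set by their symbol. They are 45 of the 113 genes of that stretch that had a probe set, and of the 18193 genes measured in all. Expression was measured on 6 Affymetrix Mouse Genome 430 2.0 arrays, each holding total RNA from bone marrow cells of adult female mice of 6 to 16 weeks, from which cells carrying mature lineage markers had been removed. The 3 arrays of one group held C57B/L6 mice and the 3 of the other held B.D(Chr5) mice, whose genetic background is labelled B.D. No treatment was given, and the comparison is between strains. The labels name chromosome 5 for the second strain but give neither the donor of that chromosome nor how much of it differs. They call the 3 samples of a strain biological replicates without saying whether a sample is 1 mouse or a pool, and the p-values speak only of the spread between the arrays at hand.

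Genes in one stretch of a chromosome are inherited together, and where 2 strains carry different alleles there, levels of some of those genes can differ through variants close to each gene. The stretch from Dhx15 to Igfbp7 holds genes of unrelated function. Among them are Rbpj, the DNA-binding effector of Notch receptors, the neighbouring Toll-like receptor genes Tlr1 and Tlr6, and the neighbouring Tec family kinase genes Txk and Tec. Others are Clock, a core circadian transcription factor, and the head-to-head genes Ppat and Paics of de novo purine synthesis. Haematopoietic progenitors divide often, and so need purine synthesis and the replication and cohesin factors encoded by Rfc1 and Pds5a. The question was whether the strain differences seen in genes nearer the start of chromosome 5 go on into this stretch.

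Each array's signal had been scaled to the same trimmed mean, and the level of bacterial control probe sets, taken as background, lay between 21.8 and 37.95 signal units. Differences are on the log2(signal + 16) scale, B.D(Chr5) minus C57B/L6, and understate changes of dim probe sets. Of 6 stem and progenitor markers, among them Kit, Cd34 and Flt3, all 6 lay above background on every array. Most markers of mature cells were also above background, the erythroid gene Hba-a1 excepted. On their brightest probe sets, 5 of the 6 stem and progenitor markers had negative differences and 1, Mpo, a positive one. Meis1 (-0.41, limma unadjusted p = 0.00932) and Mpo (0.23, limma unadjusted p = 0.0127) did not overlap between strains. These 2 were at an unadjusted p under 0.05, against 7.75% of all tested genes, and 0 of the 6 passed at an adjusted p under 0.05. Summed signals ranged from 1189 to 1714 in C57B/L6 and from 836 to 1136 in B.D(Chr5) for 4 T cell genes, and from 12157 to 14842 in C57B/L6 and from 16882 to 26444 in B.D(Chr5) for 3 neutrophil genes. In bulk samples, fewer cells of a type and less RNA per cell cannot be told apart. Over all 10743 genes tested, 24 (0.223%) had a probe set at a limma adjusted p under 0.05.

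None of the members was called. Of the 45 genes, 41 had a probe set bright enough to be tested, and 0 of these passed limma at an adjusted p under 0.05, against 0.223% of all tested genes. By probe set it was 0 of 84, against 0.182%. The lowest adjusted p was 0.533, that of Anapc4. At an unadjusted p under 0.05 there were 5 members, or 12.2% of those tested, against 7.75% of all tested genes. By probe set, 6 of 84 (7.14%) were at that level, against 4.73% of all tested probe sets. These members were Anapc4, Txk, Paics, Tmem165 and Pi4k2b. Without probe sets whose names carry the suffix x, s or a, the platform's marks for targets shared between transcripts or genes, the 5 came down to 2, Anapc4 and Tmem165, of 36 tested (5.56%), against 6.55% of all genes in that fit. Without C57B/L6 replicate 2 they came to 8 of 40 (20%), against 6.39%.

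The differences of the members were small. On the brightest tested probe set of each gene, 26 members were on the positive side and 15 on the negative side, where 46.7% of all tested genes were positive. The members' median was 0.017, which was -0.00052 without C57B/L6 replicate 2 and 0.051 without C57B/L6 replicate 3. The median over all tested genes was -0.0084. The median size of the difference, without its sign, was 0.063 for the members and 0.083 for all tested genes. None of the members had a tested probe set that differed by 1 or more, against 0.652% of all tested genes, and the largest difference was the -0.76 of Txk. For 32 of the 41, the 95% interval of the difference lay wholly between -0.5 and 0.5, and for 40 it lay between -1 and 1. The exception was Txk, and the intervals had half-widths from 0.13 to 0.62.

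**Figure D1:**
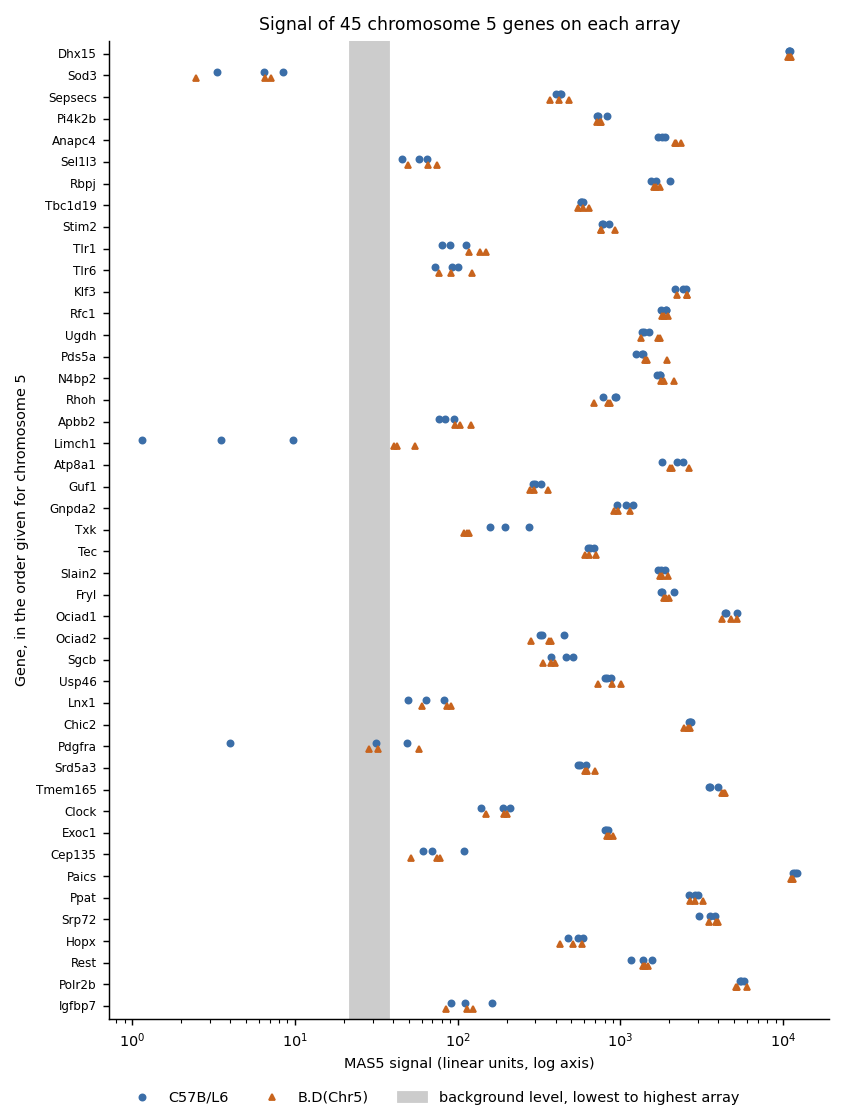
MAS5 signal of the brightest probe set of each of the 45 genes on each of the 6 arrays, on a log axis, with C57B/L6 as circles and B.D(Chr5) as triangles, and the range of the background level shaded. The strains overlap for most genes, while Limch1 lies below the shaded range in C57B/L6 and above it in B.D(Chr5), and Txk lies between 109.7 and 118 in B.D(Chr5), below all C57B/L6 arrays.

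**Figure D2:**
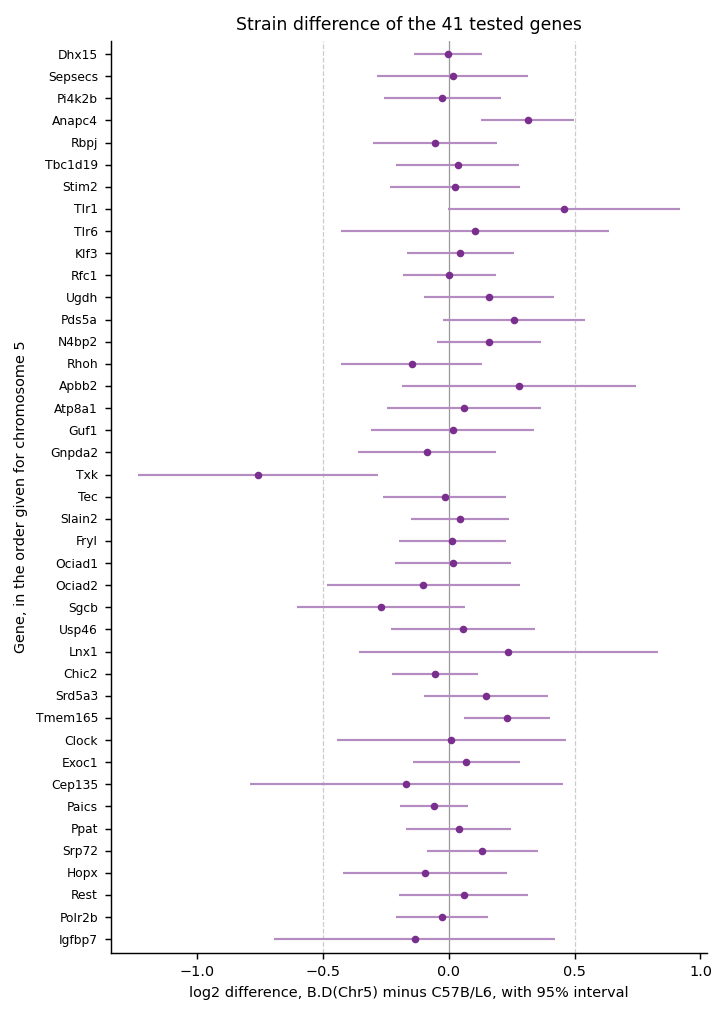
log2 difference (B.D(Chr5) minus C57B/L6) of the brightest tested probe set of the 41 tested genes, with the unadjusted 95% interval from limma, and dashed lines at -0.5 and 0.5. The intervals of 32 genes lie within the dashed lines, and that of Txk reaches beyond -1.

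Among genes of chromosomes and the cell cycle, Anapc4 had the smallest p of all members. It encodes a scaffold subunit of the anaphase-promoting complex, the ubiquitin ligase that starts chromosome separation. Its brighter probe set had signals of 1885, 1799 and 1708 on the C57B/L6 arrays and 2339, 2202 and 2169 on the B.D(Chr5) arrays. The other had 438, 486 and 517 on the C57B/L6 arrays and 569, 579 and 626 on the B.D(Chr5) arrays. On both, every B.D(Chr5) array lay above every C57B/L6 array. The log2 difference was 0.31 (95% interval 0.13 to 0.50, limma unadjusted p = 0.00373, adjusted p = 0.533) on the first and 0.29 (95% interval 0.035 to 0.55, adjusted p = 0.984) on the second, neither of which passed.

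Pds5a, which regulates the release of cohesin from chromosomes, had signals of 1364, 1373 and 1239.7 on the C57B/L6 arrays and 1455, 1421 and 1937 on the B.D(Chr5) arrays on its brightest probe set. The strains did not overlap there, but 1 array, B.D(Chr5) replicate 3, stood well above the other 5. The neutrophil markers Camp, Ngp and Ltf were also highest on that array, as were the 3 measured B cell markers, Cd79a, Cd79b and Ms4a1. Ms4a1 read 1113 there and at most 304 elsewhere. The part of these markers in the Pds5a and N4bp2 values was not tested. The log2 difference of 0.26 (95% interval -0.023 to 0.54) became 0.12 without that array. N4bp2, on its 1 tested probe set, had signals of 1668, 1741 and 1738 on the C57B/L6 arrays and 1864, 1784 and 2124 on the B.D(Chr5) arrays, again without overlap, and a log2 difference of 0.16, which was 0.087 without the same array. Rfc1, the large subunit of the clamp loader that places the replication sliding clamp on DNA, averaged 1862 ± 80.1 over C57B/L6 and 1865 ± 76.7 over B.D(Chr5) arrays (SD, n = 3). The centriole gene Cep135 was dim, at 79.98 ± 26.2 over C57B/L6 and 68.3 ± 14.5 over B.D(Chr5) arrays, with a spread wider than the distance between the means.

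The largest difference of a tested member was that of Txk. Txk encodes a Tec family tyrosine kinase known from T and NK cells. Its single probe set had signals of 159, 273 and 195 on the C57B/L6 arrays and 118, 114 and 109.7 on the B.D(Chr5) arrays. The B.D(Chr5) arrays lay close together and below all C57B/L6 arrays, of which replicate 2 was the highest. The log2 difference was -0.76 (SE 0.21, 95% interval -1.23 to -0.28), with a limma unadjusted p of 0.00558 and an adjusted p of 0.607, and it was -0.56 without C57B/L6 replicate 2. T cell markers also differed in that direction. The summed signal of the 4 listed genes, Cd3e, Cd3d, Cd3g and Thy1, lay between 1189 and 1714 in C57B/L6 and between 836 and 1136 in B.D(Chr5), and all 4 had negative log2 differences. None of the 4 was at background. Cd3d, a chain of the T cell receptor complex, had signals of 418, 664 and 512 for C57B/L6 and 349, 277 and 258 for B.D(Chr5), highest on the array where Txk was highest. Cd3g was also highest on that array, at 363. Cd3e and Thy1 were highest on C57B/L6 replicate 3, at 205 and 573, and Cd3e overlapped between strains. Whether T cell content had a part in the Txk values was not tested.

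Tec, the gene next to Txk and its closest relative in the stretch, had overlapping strains. Tec encodes the kinase that gave the family its name and acts below cytokine and antigen receptors in haematopoietic cells. Its single probe set had signals of 651, 687 and 630.1 on the C57B/L6 arrays and 637, 604 and 707 on the B.D(Chr5) arrays. The log2 difference was -0.016, with a 95% interval of -0.26 to 0.23. The difference between the Tec and Txk values was not itself tested. Of the 9 measured genes of the Tec kinase and store-operated calcium list, which includes both, 0 were called and 2, Txk and the calcium channel gene Orai2, were at an unadjusted p under 0.05 (7.75% of all tested genes). Stim2, the calcium sensor of the endoplasmic reticulum in the same list, averaged 797 ± 41.98 over C57B/L6 and 815 ± 100.04 over B.D(Chr5) arrays (SD, n = 3).

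The start regions of Tec and Txk are shown because the genes are neighbours and relatives. Each is the RefSeq window (GRCm38.p6, C57BL/6J reference, minus strand) from 250 bases before to 50 bases after the annotated start, at chr5:72868399-72868698 for Tec and at chr5:72752728-72753027 for the first of the 2 annotated starts of Txk. Capitals mark matches, on either strand, to the GC box GGGCGG, the E-box CACGTG and the ETS-type core GGAAGT, none of which overlapped another here.
Tec: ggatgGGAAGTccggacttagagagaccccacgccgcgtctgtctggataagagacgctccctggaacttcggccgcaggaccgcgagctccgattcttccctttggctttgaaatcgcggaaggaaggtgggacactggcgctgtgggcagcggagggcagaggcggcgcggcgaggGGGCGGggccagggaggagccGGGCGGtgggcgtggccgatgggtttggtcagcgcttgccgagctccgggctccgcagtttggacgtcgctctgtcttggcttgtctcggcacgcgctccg
Txk: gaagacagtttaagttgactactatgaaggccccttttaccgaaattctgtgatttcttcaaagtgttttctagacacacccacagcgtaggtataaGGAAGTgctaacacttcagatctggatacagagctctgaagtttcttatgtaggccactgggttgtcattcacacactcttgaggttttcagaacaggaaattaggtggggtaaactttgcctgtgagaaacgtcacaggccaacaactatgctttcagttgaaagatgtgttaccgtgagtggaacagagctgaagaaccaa
The Tec window had 67.7% G and C with 33 CpG pairs, and the Txk window 42.7% with 4, where the median of all 32851 RefSeq windows was 52.7% with 7. The Tec window held 2 GC boxes and the Txk window 0, while 35.7% of all windows hold at least 1. Each held 1 ETS-type core, found in 23.8% of all windows. These letters describe the reference sequence and say nothing of what binds there or of the sequence in B.D(Chr5).

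Tlr1 and Tlr6 encode neighbouring receptors that each pair with TLR2 to sense bacterial lipoproteins. The single probe set of Tlr1 had signals of 80.6, 89.98 and 112 on the C57B/L6 arrays and 118, 138 and 148 on the B.D(Chr5) arrays. All 3 B.D(Chr5) arrays were higher, with a log2 difference of 0.46 (95% interval -0.0031 to 0.92, limma unadjusted p = 0.0513, adjusted p = 1.000). Tlr6 had 73.00, 92.1 and 99.98 on the C57B/L6 arrays and 123, 77.3 and 91.5 on the B.D(Chr5) arrays, with overlapping strains and a log2 difference of 0.11 (95% interval -0.43 to 0.64). The genes are close paralogs, and whether either probe set also reads the other gene was not tested. Signals of 3 neutrophil markers, Camp, Ngp and Ltf, were each higher on every B.D(Chr5) array than on any C57B/L6 array. Their sums ran from 12157 to 14842 in C57B/L6 and from 16882 to 26444 in B.D(Chr5). The sums of 3 macrophage markers, made up mostly of Csf1r, overlapped, from 6474 to 8323 in C57B/L6 and from 6622 to 9791 in B.D(Chr5). Adgre1, Itgam and Csf1r each overlapped as well, but all 3 log2 differences were positive, at 0.46, 0.37 and 0.13. None of these markers was at background, and their part in the Tlr1 values was not tested. Of the 12 tested genes of Toll-like receptors and adaptors, 0 were called and 0 were at an unadjusted p under 0.05, with 9 positive and 3 negative and a median of 0.14. The list's genes of smallest p were Tlr1 and Tlr4, the endotoxin receptor gene, which had a log2 difference of 0.33.

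Of the other members in the group of receptors and signalling, Apbb2 separated the strains. Apbb2, an adaptor that binds the amyloid precursor protein, was dim, at 85.4 ± 8.73 over C57B/L6 and 107 ± 12.6 over B.D(Chr5) arrays (SD, n = 3), with no overlap between its arrays. The ubiquitin ligase gene Lnx1 averaged 65.3 ± 16.8 over C57B/L6 and 79.4 ± 16.5 over B.D(Chr5) arrays on its 1 tested probe set. Pdgfra, the receptor for platelet-derived growth factor on mesenchymal cells, had 3 probe sets, none of which was tested. Its brightest read from 3.997 to 49.1 in C57B/L6 and from 28.7 to 58.1 in B.D(Chr5). It lay above background on 2 of the 3 C57B/L6 arrays and on all 3 B.D(Chr5) arrays.

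Paics and Ppat encode enzymes of de novo purine synthesis and start from the same short region in opposite directions. The brightest Paics probe set had signals of 11508, 12094 and 11857 on the C57B/L6 arrays and 11529, 11341 and 11212 on the B.D(Chr5) arrays, with overlapping strains and a log2 difference of -0.057 (95% interval -0.19 to 0.079). A second read 10347, 10691 and 10003 on the C57B/L6 arrays and 9756, 10317 and 9249 on the B.D(Chr5) arrays, also overlapping, with -0.083. The third read 4578, 5688 and 5014 on the C57B/L6 arrays and 4191, 4073 and 4266 on the B.D(Chr5) arrays. Here all B.D(Chr5) arrays were lower, with a log2 difference of -0.28 (95% interval -0.48 to -0.081, limma unadjusted p = 0.0110, adjusted p = 0.798). Its name ends in _x_at, the platform's mark for probes that can also match other transcripts, so its assignment to Paics is uncertain. The 3 probe sets share the negative sign, but only the dimmest separated the strains.

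Ppat, the amidotransferase that makes the first committed step of the pathway, showed no such separation. Its brightest probe set had 2991, 2622 and 2869 on the C57B/L6 arrays and 2851, 3209 and 2669 on the B.D(Chr5) arrays, a log2 difference of 0.039 (95% interval -0.17 to 0.25). Its second tested probe set read 1283, 1202 and 957 on the C57B/L6 arrays and 1190.3, 1109.6 and 904 on the B.D(Chr5) arrays, with -0.10, the opposite sign. Over the list of 11 measured genes of purine synthesis, which includes both, 0 were called and 2 were at an unadjusted p under 0.05 (7.75% of all tested genes), with 7 positive and 4 negative and a median of 0.011. The 2 were Paics and Prps2, which makes the phosphoribosyl donor of the pathway and had -0.32 on its probe set of smallest p but 0.011 on its brightest.

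The start windows of the pair are shown because the genes share this region, their annotated starts being 277 bases apart. They are RefSeq windows of the same build and length, at chr5:76951529-76951828 on the minus strand for Ppat and at chr5:76951052-76951351 on the plus strand for Paics, with the same motifs in capitals.
Ppat: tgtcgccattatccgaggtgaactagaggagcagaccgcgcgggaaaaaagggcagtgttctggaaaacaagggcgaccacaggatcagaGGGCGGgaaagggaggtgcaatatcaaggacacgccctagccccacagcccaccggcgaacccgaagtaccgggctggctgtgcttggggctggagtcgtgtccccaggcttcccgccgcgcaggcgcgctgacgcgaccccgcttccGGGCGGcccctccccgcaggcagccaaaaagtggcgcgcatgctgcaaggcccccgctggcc
Paics: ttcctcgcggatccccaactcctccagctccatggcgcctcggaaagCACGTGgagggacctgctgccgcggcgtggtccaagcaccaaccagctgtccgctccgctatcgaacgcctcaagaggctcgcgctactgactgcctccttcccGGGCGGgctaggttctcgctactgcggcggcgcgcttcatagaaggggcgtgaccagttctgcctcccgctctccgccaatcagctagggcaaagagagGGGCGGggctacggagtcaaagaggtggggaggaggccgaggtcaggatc
The windows had 66.7% and 65.7% G and C, with 27 and 27 CpG pairs. Each held 2 GC boxes, and the Paics window also held 1 E-box, a motif found in 7.15% of all windows. Of 52 windows listed for 39 of the 45 genes, 35 held a GC box, 10 an E-box and 18 an ETS-type core. Of all windows, 35.7%, 7.15% and 23.8% held these motifs. Some genes have more than 1 window, so the 52 are not separate genes.

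Of the other enzymes, Ugdh, Srd5a3 and Gnpda2 overlapped between strains on every tested probe set. Ugdh, which makes UDP-glucuronate for glycosaminoglycans, averaged 1417 ± 79.6 over C57B/L6 and 1594 ± 223 over B.D(Chr5) arrays (SD, n = 3). Srd5a3, needed to make dolichol for protein glycosylation, had 4 tested probe sets, of which 3 were positive, and averaged 577 ± 32.4 over C57B/L6 and 642 ± 46.3 over B.D(Chr5) arrays on the brightest. Gnpda2, a glucosamine-6-phosphate deaminase, averaged 1074 ± 118 over C57B/L6 and 1012 ± 122 over B.D(Chr5) arrays. Sod3, the extracellular superoxide dismutase, had 2 probe sets, neither above background on all arrays, and its brighter one read 2.47 to 8.50 signal units. No level can be given for it.

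**Figure D3:**
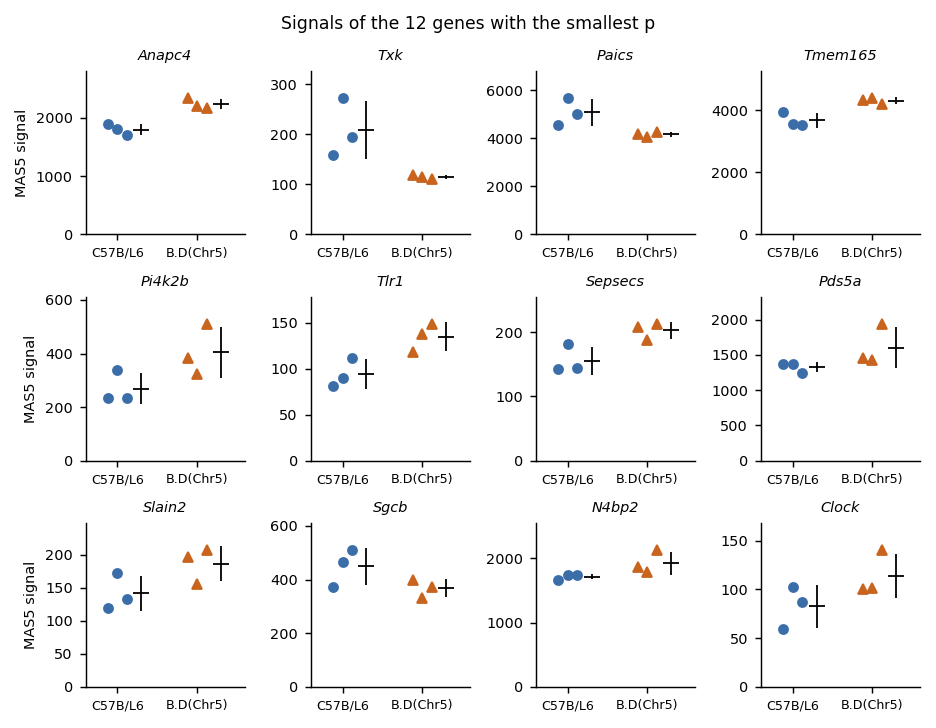
MAS5 signal on each array for the 12 members with the smallest p, on the probe set with that p, each panel starting at 0, with C57B/L6 as circles, B.D(Chr5) as triangles, and the mean and SD (n = 3) as a bar at the side. Anapc4, Txk, Paics, Tmem165, Tlr1, Sepsecs, Pds5a and N4bp2 separate the strains, while Pi4k2b, Slain2, Sgcb and Clock overlap.

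Of the members of membranes and trafficking, Tmem165 and Pi4k2b were at an unadjusted p under 0.05. Tmem165 encodes a Golgi membrane protein needed for manganese balance and glycosylation. Its single probe set had signals of 3954, 3569 and 3521 on the C57B/L6 arrays and 4341, 4404 and 4205 on the B.D(Chr5) arrays. The strains did not overlap, and the log2 difference was 0.23 (95% interval 0.060 to 0.40, limma unadjusted p = 0.0133, adjusted p = 0.850). Pi4k2b, a kinase that makes phosphatidylinositol 4-phosphate, had 3 tested probe sets that disagreed. The dimmest read 235, 337 and 234 on the C57B/L6 arrays and 381, 323 and 509.8 on the B.D(Chr5) arrays, with overlap and a log2 difference of 0.56 (95% interval 0.11 to 1.01, limma unadjusted p = 0.0208, adjusted p = 0.906). The middle one, at 532, 518 and 309 on the C57B/L6 arrays and 623, 598 and 547 on the B.D(Chr5) arrays, did not overlap and had 0.40. The brightest, at 829, 726 and 722 on the C57B/L6 arrays and 751, 720.4 and 760.1 on the B.D(Chr5) arrays, overlapped and had -0.026 (95% interval -0.26 to 0.21).

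Ociad1 and Ociad2 are neighbouring relatives that encode mitochondrial inner membrane proteins. Ociad1 had signals of 5226, 4362 and 4436 on the C57B/L6 arrays and 4757, 5228 and 4209.7 on the B.D(Chr5) arrays, which overlapped, with a log2 difference of 0.017 (95% interval -0.21 to 0.25). Ociad2, on the brighter of 2 tested probe sets, had 331, 447 and 321 on the C57B/L6 arrays and 363, 372 and 283 on the B.D(Chr5) arrays, also overlapping, with -0.10. The other probe set had -0.28. Atp8a1, a flippase that moves phosphatidylserine across membranes, was the member with the most tested probe sets together with Klf3, 6 each. Of the 6 for Atp8a1, 3 were positive and 3 negative, and the brightest averaged 2143 ± 308 over C57B/L6 and 2241 ± 357 over B.D(Chr5) arrays (SD, n = 3). Exoc1, a subunit of the exocyst that tethers vesicles, averaged 816 ± 17.7 over C57B/L6 and 859 ± 38.8 over B.D(Chr5) arrays. Tbc1d19, which has a Rab GTPase-activating domain, averaged 577 ± 9.66 over C57B/L6 and 593 ± 46.3 over B.D(Chr5) arrays, and the vesicle protein gene Chic2 averaged 2673 ± 36.3 over C57B/L6 and 2578 ± 121 over B.D(Chr5) arrays. Sel1l3 was not tested, and its brighter probe set averaged 55.9 ± 9.61 over C57B/L6 and 63.1 ± 12.5 over B.D(Chr5) arrays (SD, n = 3), above background on every array.

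None of the 5 transcription factor genes separated the strains on a tested probe set, where 16.1% of all tested genes did. So few genes cannot show a share lower than that. Rbpj had 3 tested probe sets, all with negative differences, and the brightest averaged 1739 ± 249.7 over C57B/L6 and 1665 ± 73.5 over B.D(Chr5) arrays (SD, n = 3), with overlap. Over the Notch list, which includes Rbpj, 0 of 12 tested genes were called. At an unadjusted p under 0.05 there was 1, the ubiquitin ligase gene Dtx4, against 7.75% of all tested genes. Ncstn of the gamma-secretase followed it in p. Klf3, a repressor of the Krüppel-like family active in blood cells, averaged 2376 ± 187 over C57B/L6 and 2455 ± 198 over B.D(Chr5) arrays on its brightest probe set (SD, n = 3), and 4 of its 6 tested probe sets were positive. Rest, a repressor of neuronal genes, averaged 1367 ± 199 over C57B/L6 and 1417 ± 46.5 over B.D(Chr5) arrays on the brightest of 3 tested probe sets. Hopx, a homeodomain protein that does not bind DNA, had 2 tested probe sets, both negative, and averaged 538 ± 59.7 over C57B/L6 and 505 ± 77.2 over B.D(Chr5) arrays on the brighter.

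Clock was dim. Its tested probe set of smallest p read 58.9, 102 and 87.1 on the C57B/L6 arrays and 100.3, 101 and 140.01 on the B.D(Chr5) arrays, with overlap and a log2 difference of 0.41 (95% interval -0.15 to 0.97). The brighter one averaged 181 ± 37.1 over C57B/L6 and 181 ± 28.6 over B.D(Chr5) arrays (SD, n = 3), with 0.011. Of 12 tested circadian genes, Clock among them, 0 were called and 2, Nr1d2 and Rora, which encode nuclear receptors of the clock, were at an unadjusted p under 0.05 (7.75% of all tested genes). Nr1d2 had signals of 1116, 1183 and 1298 for C57B/L6 and 927, 1083 and 931 for B.D(Chr5), which did not overlap, and a log2 difference of -0.29. The time of day at which mice were killed is not in the labels.

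On their brightest probe sets, the members that act in RNA and protein synthesis overlapped between strains. Dhx15, a helicase that takes spliceosomes apart and the first gene of the stretch, had signals of 11034, 10915 and 10829 on the C57B/L6 arrays and 10677, 11092 and 10958 on the B.D(Chr5) arrays. The log2 difference was -0.0024 with a 95% interval of -0.14 to 0.13, the narrowest of the members. Polr2b, the second largest subunit of RNA polymerase II, had 5709, 5403 and 5493 on the C57B/L6 arrays and 5219, 6019 and 5093 on the B.D(Chr5) arrays, a log2 difference of -0.028. Srp72, of the signal recognition particle that brings nascent secreted proteins to the endoplasmic reticulum, had 3534, 3025 and 3791 on the C57B/L6 arrays and 3515, 3969 and 3837 on the B.D(Chr5) arrays, a log2 difference of 0.13 (95% interval -0.086 to 0.35). Strains overlapped for all 3. Of 7 tested genes of the particle and its receptor, 0 were called and 1, Srp9, was at an unadjusted p under 0.05 (7.75% of all tested genes). Srp9 had -0.45 on that probe set (limma adjusted p = 0.272) and 0.087 on its brightest. Srp72 followed it in p.

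Sepsecs, the enzyme that completes selenocysteine on its transfer RNA, had 2 tested probe sets. The dimmer read 142, 181 and 144 on the C57B/L6 arrays and 209, 187 and 213 on the B.D(Chr5) arrays. These did not overlap, with a log2 difference of 0.36 (95% interval -0.024 to 0.73). The brighter read 399, 433 and 423 on the C57B/L6 arrays and 369.7, 485 and 421 on the B.D(Chr5) arrays, with overlap and 0.015. Guf1, a mitochondrial translation factor, averaged 305 ± 16.6 over C57B/L6 and 309.5 ± 42.4 over B.D(Chr5) arrays (SD, n = 3). Of 13 tested genes of clamp loading and cohesin regulation, Rfc1 and Pds5a among them, 0 were called. At an unadjusted p under 0.05 there was 1, the clamp loader subunit gene Rfc2, against 7.75% of all tested genes. Pds5b followed it in p.

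In the remaining group, Limch1 stood apart although it was too dim to be tested. Limch1 encodes an actomyosin regulator, and it was picked out after its values were seen. The brightest of its 4 probe sets had signals of 1.15, 3.49 and 9.76 on the C57B/L6 arrays and 40.7, 54.9 and 42.6 on the B.D(Chr5) arrays. All C57B/L6 values lay below the background of their arrays and all B.D(Chr5) values above it. The mean of the B.D(Chr5) log2 signals, set against the C57B/L6 background levels, gave a ratio of 1.98. Backgrounds of the B.D(Chr5) arrays were 23.4, 31.8 and 37.95 and were not subtracted, so this ratio is not a strict lower bound. In a fit without the filter on dim probe sets, limma gave an unadjusted p of 2.62e-04 and an adjusted p of 0.210, the lowest of any member but not past the threshold, which 0.0688% of all probe sets passed. Of its other probe sets, 0 lay above background on all arrays. Stromal and endothelial markers differed in the same direction as a sum, while each of them alone overlapped between strains. Limch1 was below background on all C57B/L6 arrays, so its values there cannot be ranked against these markers. Among C57B/L6 arrays, Cxcl12 and Col1a1 were highest on replicate 1, at 800 and 378. Their summed signal ranged from 1192 to 1849 in C57B/L6 and from 1948 to 2382 in B.D(Chr5) over 4 genes (Cxcl12, Col1a1, Pecam1 and Cdh5), of which 3 lay above background on all arrays, and their part in the Limch1 values was not tested.

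Slain2, which promotes microtubule growth, read 119, 171 and 133 on the C57B/L6 arrays and 196, 156 and 206 on the B.D(Chr5) arrays on its dimmer probe set, with overlap and a log2 difference of 0.37, and had 0.045 on the brighter. Sgcb, a sarcoglycan of the membrane complex around dystrophin, read 372, 466 and 509 on the C57B/L6 arrays and 399, 332 and 372 on the B.D(Chr5) arrays on its brightest, with overlap. Its log2 difference there was -0.27 (95% interval -0.60 to 0.064), while its other 2 tested probe sets were positive. Fryl, a large scaffold protein, averaged 1899 ± 198 over C57B/L6 and 1914 ± 65.3 over B.D(Chr5) arrays (SD, n = 3), and the deubiquitinase gene Usp46 averaged 834 ± 34.1 over C57B/L6 and 875 ± 140.02 over B.D(Chr5) arrays. Igfbp7, a secreted protein of vessels and stroma and the last gene of the stretch, averaged 122 ± 36.6 over C57B/L6 and 108 ± 20.7 over B.D(Chr5) arrays on its 1 tested probe set, with a spread wider than the distance between the means. Its 2 other probe sets were not above background on all arrays.

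Counted over all roles, 10 of the 41 tested members (24.4%) had a tested probe set without overlap between the strains, against 16.1% of all tested genes. By probe set this was 11 of 84 (13.1%) against 9.38% of all tested probe sets. Of the 84, 9 were without overlap and higher in B.D(Chr5), against 4.14% of all tested probe sets. Those of Txk and Paics, 2 of the 84, were without overlap and lower, against 5.24% of all tested probe sets. Of all 2113 tested probe sets without overlap, 933 were higher and 1180 lower, where the 11 here divided into 9 and 2. Sepsecs, Pi4k2b and Anapc4, which stand next to each other in the set, each had at least 1 probe set without overlap. This run was noticed after the values were seen. Among the 24 members with more than 1 tested probe set, all probe sets had the same sign in 12.

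The stretch was then set beside the rest of chromosome 5. Before Dhx15, 4 of 175 tested genes were called (2.29%): Dnajc2, AI506816, Pus7 and Lcorl. The count was 2, AI506816 and Lcorl, without any 1 of C57B/L6 replicates 1, 2 and 3 or B.D(Chr5) replicate 1, and also with the replicate number as a block. Dnajc2, with 3 tested probe sets, had a log2 difference of -1.35 on that of smallest p but -0.071 on its brightest. From Dhx15 to Igfbp7, 0 of the 76 tested genes were called, whether members or not, and after Igfbp7 0 of 448. At an unadjusted p under 0.05 the counts were 28 of 175 (16.0%) before Dhx15, 5 of 41 (12.2%) for the members, 2 of 35 (5.71%) for the other genes between, Kit included, and 23 of 448 (5.13%) after Igfbp7. At an unadjusted p under 0.01, where 1.9% of all tested genes lay, they were 17, 2, 0 and 5, or 9.71%, 4.88%, 0% and 1.12%. The shares of the stretches were not tested against each other.

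**Figure D4:**
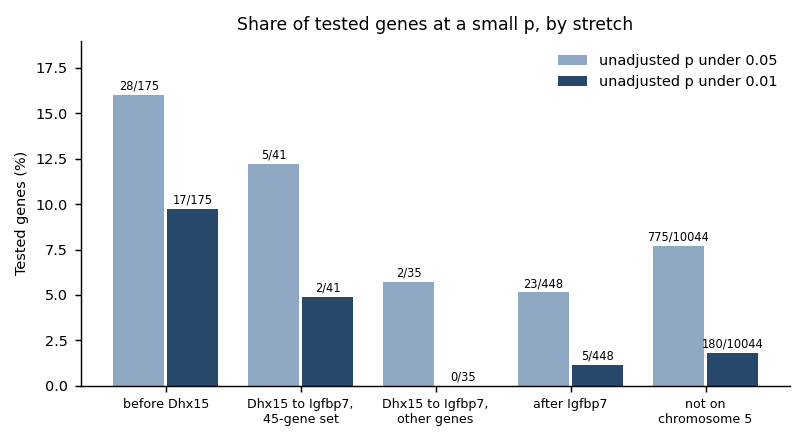
Percentage of tested genes with a probe set at an unadjusted p under 0.05 (light bars) and under 0.01 (dark bars) in each stretch of chromosome 5 and among genes not placed on it, with the counts above the bars. The bars before Dhx15 are the tallest, at 16.0% and 9.71%, and the members' second bar rests on 2 genes, Anapc4 and Txk.

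The size of the differences also varied along the chromosome. The median size on the brightest probe set was 0.097 before Dhx15, 0.063 for the members, 0.077 for the other genes between and 0.077 after Igfbp7. The largest difference on any tested probe set was 5.14 before Dhx15, against 0.76 in size for the members. In runs of 25 consecutive tested genes, the 7 runs before Dhx15 held, in order, 1, 10, 4, 1, 2, 2 and 8 genes at an unadjusted p under 0.05, where 7.75% of all tested genes lay. The high counts were in the run from Tmem60 to Atg9b, with 3 of the called genes, and in the last, from Msx1 to Adgra3, with Lcorl, while the 4 runs between them were no higher than 4. The run from Dhx15 to Lias held 3, that from Ugdh to Ociad1 2, and that from Ociad2 to Polr2b 2, within the range of those 4 runs. After them, the run from Igfbp7 to G3bp2 held 1 and that from Uso1 to Plac8 5.

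The called gene nearest to the stretch, Lcorl, lay 4 tested genes before Dhx15. Lcorl encodes a DNA-binding protein related to a nuclear receptor corepressor, and on the probe set that passed its signals were 98.3, 115 and 89.98 for C57B/L6 and 376, 396 and 493 for B.D(Chr5), a log2 difference of 1.90 (limma adjusted p = 0.00130). On the brightest of its 4 tested probe sets the difference was 0.58. Adgra3, an adhesion G protein-coupled receptor gene picked out after its values were seen, was the tested gene just before Dhx15 and was the last there at an unadjusted p under 0.01. Its signals were 175, 226 and 292 for C57B/L6 and 358, 375 and 442 for B.D(Chr5), without overlap, a log2 difference of 0.74 (limma unadjusted p = 0.00305, adjusted p = 0.487). Dhx15 followed with the -0.0024 given above. The extent of the chromosome 5 segment that sets the strains apart is not in the labels and was not measured here. Whether the probes match the B.D(Chr5) sequence was not examined, so a difference in signal need not be one in RNA level.

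**Figure D5:**
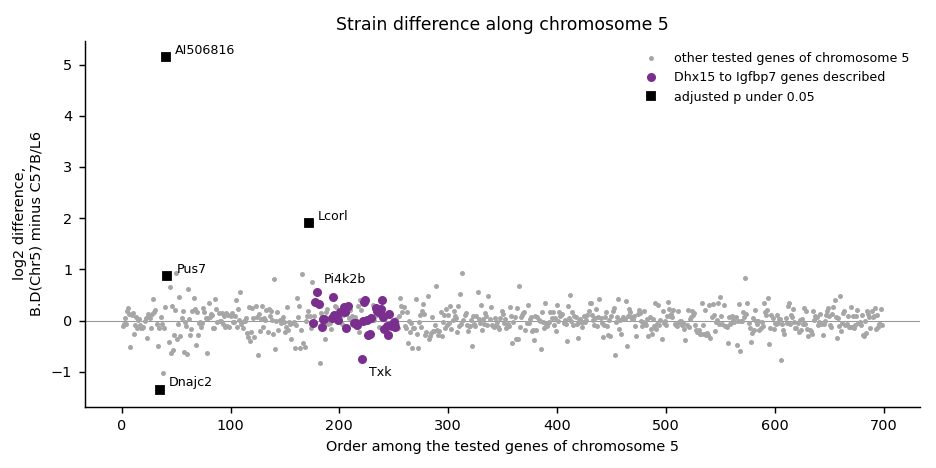
log2 difference (B.D(Chr5) minus C57B/L6) on the probe set of smallest p for each of the 699 tested genes of chromosome 5, in order of position, with the members in purple and called genes as black squares. The 4 called genes all lie before the members, whose values run from -0.76 (Txk) to 0.56 (Pi4k2b).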

How the data were processed

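The deposited values were signal intensities of 45101 probe sets on 6 arrays, made by the authors with MAS5 per the submitters' processing notes, whose version is not given in the sources used here. On every array their mean, after trimming 2% at each end, was 500. Gene symbols came from the platform annotation (34945 probe sets with 1 symbol, 932 with several, which were not used, and 9160 with none), and 34741 were updated through gene identifiers to RefSeq (GRCm38.p6), which also gave the order of genes. The 45 genes had 117 probe sets.

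Differences were tested on log2(signal + 16) with limma 3.58.1 in R 4.3.3 (lmFit, eBayes with trend, two-sided, Benjamini-Hochberg adjustment), in the upper 50% of probe sets by mean signal over all arrays, 22518 in all, of which 84 belonged to the 45 genes. A gene was called where 1 of its probe sets had an adjusted p under 0.05. Background was set per array at percentile 95 of the 27 probe sets for bacterial transcripts. With 3 arrays per strain, their number limits the precision. No pair of arrays held identical values, and 0 columns belonged to other samples. The scripts were tested on simulated data.

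The genes and lists were chosen with earlier results of these data known. Signals of all 6 arrays were to be given for called genes of the set, the 12 of smallest p, the 6 of highest mean signal and the neighbouring pairs Tlr1 and Tlr6, Tec and Txk, Ociad1 and Ociad2, and Paics and Ppat. The others were to be given by range or mean, and each pathway list by its called genes or else the 2 of smallest p. Alternatives were pseudocounts of 1 and 64, no filter or the upper 70% of probe sets, quantile normalization, median centring, no trend in eBayes, dropping probe sets with suffix x, s or a, a block for the replicate number, averaging probe sets, and leaving out each array. The values of 1 gene of the set are not reported singly here.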

Additional observations from a re-analysis of the deposited data

How the results depend on the processing

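None of the 45 genes was called under any of the 15 refits, and the lowest adjusted p that limma gave a member was 0.210, for Limch1 without the filter on dim probe sets. Leaving out each array in turn, the members at an unadjusted p under 0.05 numbered 4 to 8 (9.76% to 20%, against 6.01% to 10.6% of all genes), their median log2 difference ran from -0.00052 to 0.051, and the called genes before Dhx15 numbered 2 to 5. Without probe sets of suffix x, s or a, 2 members were at an unadjusted p under 0.05. The 12 members of smallest p kept their direction in every refit that included their probe set, and when probe sets were averaged. They were picked by p in these same arrays. A probe set without overlap between strains cannot change sign when an array is left out, so the kept direction is no added evidence. Averaged over its probe sets, Sgcb had only -0.013.

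Some members with differences near 0 changed direction. Over the arrays left out, the log2 difference ran from -0.014 to 0.013 for Dhx15, from -0.10 to 0.018 for Polr2b and from -0.033 to 0.099 for Ppat. It ran from -0.077 to 0.033 for Tec, from -0.050 to 0.23 for Tlr6, from -0.058 to 0.099 for Ociad1 and from -0.18 to 0.046 for Ociad2. The mean over probe sets gave -0.031 for Ppat. Each of these ranges spans 0, and none of these values passed the test.

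With the replicate number as a block, 2 genes before Dhx15 were called in place of 4, while 0 members were called and 5 were at an unadjusted p under 0.05. Deviations of same-numbered arrays correlated at -0.11, -0.20 and 0.19, so the numbers were not taken to pair the samples. Dim probe sets limit what can be said of Limch1, Sod3 and Pdgfra, and 3 arrays per strain limit the precision of all values.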
